A study of Mus musculus with 10 samples.

Results

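The 7 genes described here encode the subunits of AMP-activated protein kinase (AMPK) and were taken by name from the 16112 genes counted in each library, after Ensembl identifiers were given symbols from a GRCm38 annotation. AMPK is a heterotrimer. Its catalytic subunit phosphorylates target proteins, its scaffold subunit holds the complex together and binds glycogen, and its nucleotide-binding subunit senses the ratio of AMP and ADP to ATP. In skeletal muscle, the kinase is activated by contraction and by shortage of energy, and is known for its roles in glucose uptake, fatty acid oxidation, and mitochondrial content. Each subunit is made from more than 1 gene, so that the complexes of a muscle depend on which genes it transcribes. All 7 genes were present in the counts of all 10 libraries, and the lowest count of any of them was 13 reads (Prkab1 in soleus 3).

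RNA was sequenced from extensor digitorum longus (EDL, 3 libraries), psoas (3 libraries), and soleus (4 libraries) of mice that had been used in another study. All were homozygous wild-type mice of the strain B6C3Fe a/a-Ttnmdm/J, whose colony also carries the mdm mutation of titin, and were 32 to 54 days old. The 10 libraries came from whole muscle, hold 7 animal codes, 3 of which occur in more than 1 library, and had total counts from 12737971 to 50431713. EDL 1, EDL 2, psoas 1, and psoas 2 were quality-trimmed before alignment. These came from male mice of 42 or 54 days, whereas EDL 3 and psoas 3 were untrimmed and came from female mice of 44 days, so that trimming, sex, and age cannot be told apart within these muscles. No soleus library was trimmed.

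The muscle labels were checked with the myosin heavy chain genes. Myh7, the slow myosin, ranged from 6836 to 13574 normalized CPM in soleus, but only from 3.19 to 117 over the EDL and psoas libraries. Normalized CPM is a count scaled to the total of its library and to the TMM factor, which adjusts for differences in library composition. Myh4, the fastest myosin, ranged from 113 to 1692 normalized CPM in soleus and from 38374 to 56666 in EDL and psoas. The value of 113 was that of soleus 2, and the other soleus libraries had 1548.5 to 1692. Myh2 had a mean of 10491 in soleus, 2674 in EDL, and 3929 in psoas. The libraries overlapped between all muscles in Myh1. The 4 fibroblast markers had sums of 1266 to 1707 normalized CPM in EDL, 296 to 484 in psoas, and 436 to 580 in soleus. The 6 tendon markers had sums of 506 to 532 in EDL, 27.2 to 70.3 in psoas, and 104.6 to 387 in soleus. For the 4 macrophage markers, the sums were 55.4 to 113 in EDL, 20.7 to 39.5 in psoas, and 40.2 to 57.1 in soleus. Endothelial marker sums spanned 104 to 196, nerve marker sums 7.61 to 49.1, adipocyte marker sums 2.55 to 44.7, and erythroid marker sums 3.43 to 122 normalized CPM over the 10 libraries. No marker measured was at 0 in all libraries of a muscle.

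Levels of different genes were compared as FPKM, here the normalized CPM per kilobase of summed exon length. In EDL, the scaffold gene Prkab2 was the most abundant subunit transcript at 31.5 ± 16 FPKM (SD, n = 3), followed by the catalytic gene Prkaa2 at 22.0 ± 11.8. The same pair led in psoas, with 44.6 ± 3.05 FPKM for Prkab2 and 40.7 ± 4.77 for Prkaa2 (n = 3). The ranges of these 2 genes overlapped in both muscles. In soleus, Prkaa2 came first at 23.8 ± 3.18 FPKM (n = 4), and Prkab2 stood behind the nucleotide-binding gene Prkag1, with 7.54 ± 1.40 against 9.87 ± 0.944, although their ranges overlapped. The other catalytic gene, Prkaa1, was at 3.72 ± 0.266 FPKM in EDL, 3.17 ± 0.371 in psoas, and 3.83 ± 0.216 in soleus. At the low end were Prkab1, the second scaffold gene, and Prkag2, a nucleotide-binding gene, with means between 0.291 and 0.806 FPKM, below the median of all genes in each muscle (1.43 to 1.48 FPKM). In the order of levels, Prkag3 stood directly below Prkaa2 in EDL and psoas, and below Prkaa1 in soleus.

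**Figure D1:**
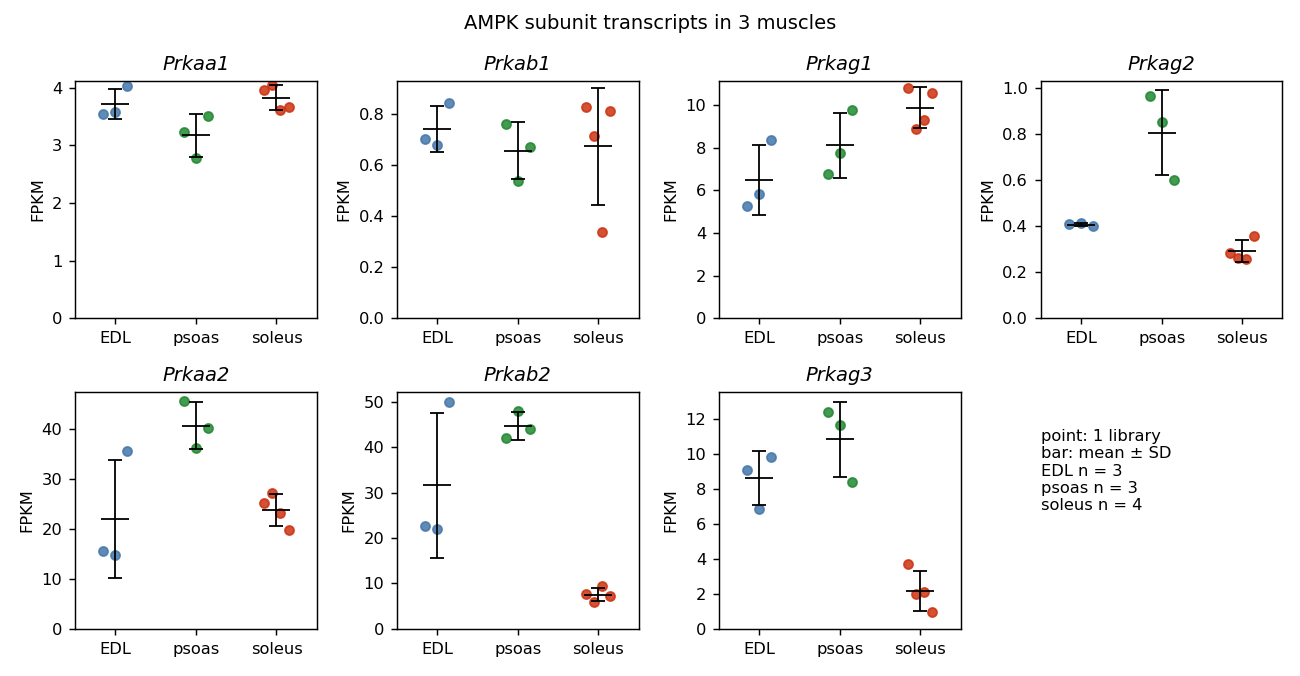
Levels of the 7 AMPK subunit transcripts in EDL, psoas, and soleus, in FPKM on linear axes that start at 0. Each point is 1 library and the bars give the mean ± SD. Prkab2, Prkag3, and, by a narrow margin, Prkag2 lie lower in all 4 soleus libraries than in any library of the other muscles. EDL 3 (the right-hand EDL point) stands above EDL 1 and EDL 2 in Prkaa2 and Prkab2.

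Differential expression was tested with edgeR's quasi-likelihood test on the counts, and genes with an adjusted p under 0.01 (Benjamini-Hochberg, over all genes) and a fold change over 2 were called. Of the 7 subunit genes, 0 were called in psoas vs EDL, 2 were called in soleus vs EDL, and 3 were called in soleus vs psoas. The shares of all genes called in these comparisons were 2.11%, 5.77%, and 5.69%. Each subunit gene called was lower in soleus, a direction in which 2.18% of all genes were called in soleus vs EDL and 2.71% in soleus vs psoas. The median log2 fold change of the 7 genes was 0.33 in psoas vs EDL (0.01 over all genes), -0.12 in soleus vs EDL (-0.05), and -0.77 in soleus vs psoas (0.02). The libraries did not overlap between muscles for 3 subunit genes in psoas vs EDL, where this held for 29.6% of all genes. It held for 4 in soleus vs EDL (29.5% of all genes) and for 5 in soleus vs psoas (25.8%). The comparisons with soleus share the soleus libraries. In bulk muscle, fewer cells of a type and less RNA per cell cannot be told apart.

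**Figure D2:**
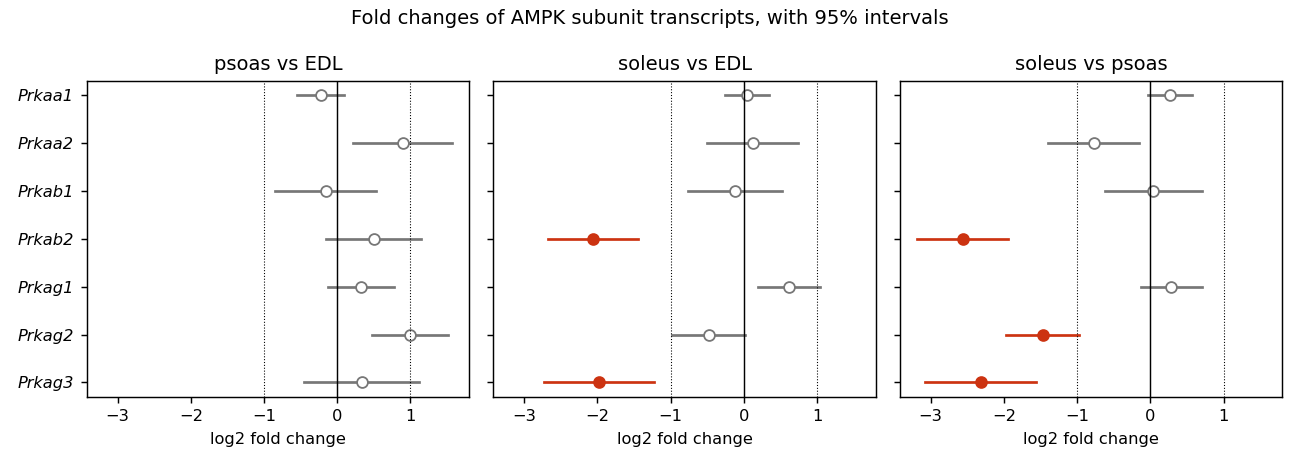
Log2 fold changes of the 7 subunit genes in each comparison, as points with 95% intervals from the edgeR fit. Filled red points were called, open grey points were not, and dotted lines mark a fold change of 2. In the 2 comparisons with soleus, Prkab2 and Prkag3 lie near or below -2, and in psoas vs EDL no point is filled.

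Among the catalytic genes, Prkaa2 encodes the catalytic subunit that predominates in muscle. Its levels in EDL were 124, 118, and 283 normalized CPM in replicates 1 to 3. Psoas had 364, 289, and 321, while soleus had 201, 217, 185, and 157. Psoas was above every library of the other muscles, while the soleus values fell between the low and the high EDL libraries. For psoas vs EDL, edgeR gave a log2 fold change of 0.89 ± 0.31 (SE), an adjusted p of 0.0832, and an unadjusted p of 0.0139. Without EDL 3 it was 1.43 (adjusted p = 0.00228), which would be called, and the adjusted p over 20 alternative fits ranged from 0.00228 to 0.302. Chosen after the data were seen, a fit by muscle and trimming gave 1.44 (adjusted p = 0.00683) within the trimmed libraries and 0.18 within the untrimmed ones, where EDL 3 and psoas 3 stand alone. EDL 3 lay above the mean of EDL 1 and EDL 2 by 1.23 on the log2 scale in Prkaa2, a difference exceeded by 0.845% of 12664 genes with a mean of at least 1 CPM. The fibroblast marker sum of EDL 3 was 1266 normalized CPM, against 1707 and 1678 in EDL 1 and EDL 2. The macrophage sum was 55.4 against 112 and 113, and the endothelial sum 114 against 196 and 171. Myh4 was higher in EDL 3, at 54886 against 38374 and 38852, and so was the slow Myh7, at 117 against 7.54 and 30.1. Myh2 was lower in EDL 3, at 2006 against 3125 and 2891. Myh1 lay in between, at 9563 against 10547 and 8442. The tendon sum of EDL 3 lay between those of EDL 1 and EDL 2. The part of tissue make-up in the Prkaa2 and Prkab2 values of EDL 3 was not tested. Against psoas, soleus Prkaa2 had a log2 fold change of -0.77 (95% interval -1.39 to -0.15, adjusted p = 0.096). Against EDL it was 0.12 (-0.51 to 0.75).

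Prkaa1, the catalytic gene expressed in most tissues, varied least. It ranged from 16.5 to 18.7 normalized CPM in EDL, from 12.9 to 16.4 in psoas, and from 16.8 to 18.9 in soleus. The psoas values lay just below those of both other muscles. None of its 3 comparisons was called, and the widest 95% interval on the log2 scale ran from -0.54 to 0.09 (psoas vs EDL). As a share of catalytic transcripts in FPKM, Prkaa2 made up 81.4%, 80.5%, and 89.8% in EDL, 93.4%, 92.9%, and 92.0% in psoas. In soleus, the share lay between 84.3% and 87.0%. Thus Prkaa2 was the main catalytic transcript of every library. The share decreased by 6.68 percentage points in soleus vs psoas (exact two-sided permutation test, p = 0.0286, the smallest that 4 against 3 libraries allow; adjusted p = 0.0714 over the 15 shares and comparisons tested). Between psoas and EDL it differed by 8.84 points without overlap, at the smallest p that 3 against 3 libraries allow (exact permutation p = 0.1), and by 2.14 points between psoas 3 and EDL 3 alone.

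Of the scaffold genes, Prkab2 showed the clearest difference. Its normalized CPM was 38.7, 30.4, 47.8, and 36.9 in soleus 1 to 4. In EDL it was 116, 112, and 255, and in psoas 214, 244, and 224. Every soleus library was below every library of the other muscles by a wide margin. Prkab2 fell by 2.06 ± 0.28 (SE) on the log2 scale in soleus vs EDL (4.18-fold, edgeR adjusted p = 0.000764). In soleus vs psoas, the change was -2.57 ± 0.28 (5.92-fold, adjusted p = 0.000236). Both calls held in all 20 alternative fits, with adjusted p up to 0.00394 and 0.00156. They also held among the untrimmed libraries alone, at -2.73 against EDL 3 and -2.54 against psoas 3. A covariate for the run proxy (libraries grouped by trimming and age, since the sequencing run of each is not given) gave -3.19 in soleus vs psoas. The 4 fibroblast markers also had a lower sum in soleus than in EDL, while their ranges overlapped between soleus and psoas. The part of these markers in the Prkab2 differences was not tested.

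Between the 2 fast muscles, Prkab2 had a log2 fold change of 0.50 (95% interval -0.15 to 1.15, adjusted p = 0.29 in psoas vs EDL), and its libraries overlapped. Here too EDL 3 stood above EDL 1 and EDL 2, by 1.16 on the log2 scale, which 1.18% of genes exceeded. Without EDL 3 the value was 0.998, just short of a fold of 2 (adjusted p = 0.00793), and between the untrimmed psoas 3 and EDL 3 it was -0.19. Prkab1, the scaffold gene known from liver and other tissues, stood between 1.04 and 2.58 normalized CPM in all 10 libraries, on counts from 13 to 110. Its 95% intervals on the log2 scale were -0.85 to 0.54 in psoas vs EDL, -0.77 to 0.53 in soleus vs EDL, and -0.62 to 0.70 in soleus vs psoas. Differences within these bounds remain compatible with these libraries.

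Prkab2 remained the main scaffold transcript in soleus despite its lower level. Its share of scaffold transcripts was 97.5% ± 0.769 in EDL, 98.5% ± 0.334 in psoas, and 91.5% ± 3.36 in soleus (SD, n = 3, 3, and 4). The soleus shares lay between 89.4% and 96.5%, below all others, with exact permutation p = 0.0571 against each of the other muscles. Summed over both scaffold genes, the level was 8.21 ± 1.24 FPKM in soleus, 32.3 ± 16 in EDL, and 45.3 ± 2.94 in psoas. The summed catalytic level was 27.7 ± 3.37 FPKM in soleus, 25.7 ± 12.1 in EDL, and 43.9 ± 4.98 in psoas. The scaffold sum was below the catalytic sum in each soleus library, above it in each EDL library and in psoas 2 and psoas 3, and below it in psoas 1.

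The nucleotide-binding genes differed among themselves in how their levels varied between muscles. Prkag3 encodes the subunit that is largely restricted to skeletal muscle. It was measured at 33.5, 25.3, and 36.2 normalized CPM in EDL, and at 45.7, 43.0, and 30.9 in psoas. In soleus, it was at 13.6, 7.30, 7.81, and 3.48. The fast muscles overlapped with each other, and all soleus libraries were lower. Prkag3 decreased by 1.98 ± 0.34 (SE) on the log2 scale in soleus vs EDL (3.95-fold, edgeR adjusted p = 0.00318). In soleus vs psoas, the change was -2.32 ± 0.35 (4.98-fold, adjusted p = 0.0013), called in all 20 alternative fits. The call against EDL held in 17 of 20, with adjusted p from 1.23e-06 to 0.0175. It was lost without EDL 1 (adjusted p = 0.0139), without soleus 2 (0.0122), and with trimming as a covariate (0.0175), at log2 fold changes of -1.99, -1.94, and -1.93. Among untrimmed libraries only, the changes were -2.18 (adjusted p = 0.0331) against EDL 3 and -1.95 (0.0538) against psoas 3, neither of which was called. In psoas vs EDL, its log2 fold change was 0.33 (95% interval -0.45 to 1.12).

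Prkag2, the gene whose human counterpart is mutated in a glycogen storage cardiomyopathy, was scarce in all muscles. It reached 6.25, 5.52, and 3.89 normalized CPM in psoas. EDL was at 2.64, 2.68, and 2.58, and soleus at 1.85, 1.70, 1.67, and 2.32. The 3 muscles did not overlap, with psoas highest and soleus lowest. In soleus vs psoas, Prkag2 fell by 1.47 ± 0.23 (SE) on the log2 scale (2.77-fold, edgeR adjusted p = 0.00149). That call was kept in 18 of 20 alternative fits, with adjusted p from 1.00e-06 to 0.0458. It was lost with trimming (adjusted p = 0.0153) or the run proxy (0.0458) as a covariate, and among untrimmed libraries, where the change was -1.04 (0.0963). In psoas vs EDL, the log2 fold change was 0.99 ± 0.24 with an adjusted p of 0.0231 (unadjusted p = 0.00136). Thus 2 subunit genes (Prkaa2 and Prkag2) had an unadjusted p under 0.05 in that comparison, and DESeq2 called 1 (Prkag2, 1.02, adjusted p = 0.00291) where edgeR and limma-voom called 0. In soleus vs EDL, it was -0.48 (95% interval -0.98 to 0.02, adjusted p = 0.155). Prkag2 has 3 start sites in RefSeq, and counts per gene do not show which was used.

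Prkag1, the nucleotide-binding gene expressed broadly, had its highest mean in soleus. It was at 23.5, 19.3, 20.2, and 23.0 normalized CPM in soleus, against 11.4, 12.7, and 18.1 in EDL and 14.8, 16.9, and 21.2 in psoas. Soleus was above EDL in every library but overlapped with psoas. Its log2 fold change in soleus vs EDL was 0.61 ± 0.19 (SE), with an edgeR adjusted p of 0.0465, so it was not called. The EDL values of 11.4 and 12.7 were those of the trimmed libraries. With trimming as a covariate, the log2 fold change was 0.296 (edgeR adjusted p = 0.335), and with the run proxy 0.271 (0.532). Among untrimmed libraries only, it was 0.244. Prkag1 shares part of its locus with an antisense gene, B130046B21Rik, on the opposite strand. The strand setting of the counting is not given in the sources used here, and the values of Prkag1 are uncertain to that extent.

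The make-up of the nucleotide-binding transcripts differed between soleus and the fast muscles. Prkag3 contributed 61.6%, 52.4%, and 53.0% of their FPKM in EDL and 61.5%, 57.6%, and 44.8% in psoas. In soleus, it contributed 25.0%, 17.8%, 18.2%, and 7.98%. Prkag1 took most of the remainder, with 80.4% ± 6.56 in soleus, 41.7% ± 5.24 in EDL, and 41.3% ± 9.56 in psoas (SD, n = 4, 3, and 3). The Prkag1 share was higher in soleus by 38.7 percentage points than in EDL and by 39.0 than in psoas, and the Prkag3 share differed by -38.4 and -37.4 points. Each of these 4 differences had an exact permutation p of 0.0286, the smallest possible, and an adjusted p of 0.0714. Because Prkag2 supplied little, a lower Prkag3 share nearly fixes a higher Prkag1 share. The Prkag1 and Prkag3 differences are therefore not separate results. With untrimmed libraries only, the difference from psoas shrank to 28.3 points for Prkag1 and to -27.5 for Prkag3. Prkag2 supplied between 1.93% and 4.79% everywhere. Summed over the 3 genes, the level was 15.5 ± 2.79 FPKM in EDL, 19.7 ± 0.835 in psoas, and 12.4 ± 1.65 in soleus.

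**Figure D3:**
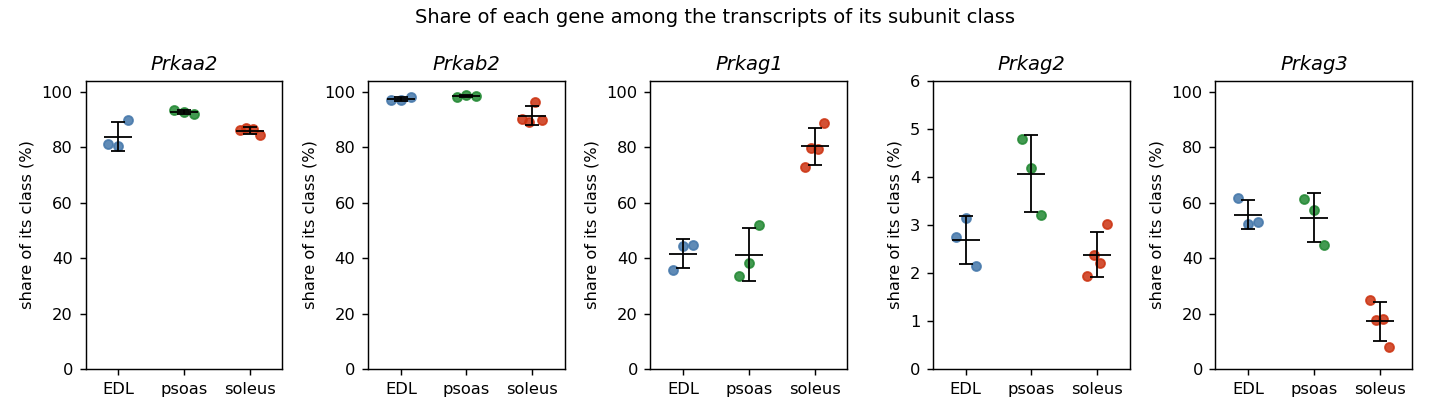
Share of a gene in the summed FPKM of its subunit class, in percent, for each library (points) with mean ± SD (bars). The axis for Prkag2 ends at 6%. Prkag1 holds between 73.0% and 89.0% of nucleotide-binding transcripts in soleus and between 33.7% and 52.0% in the other muscles. Prkag3 is nearly its mirror image, because the shares of a class add up to the whole and Prkag2 holds little.

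The start regions of Prkab2 and Prkag3 are shown because these were the 2 genes called lower in soleus in both comparisons. Prkab2 lies on the plus strand at chr3:97658193-97673812 and Prkag3 on the minus strand at chr1:74738922-74749221 (GRCm38). The regions, from RefSeq (GRCm38.p6), run from 250 bases before to 50 bases after the start site at chr3:97657962-97658261 and chr1:74748906-74749205, each 5′ to 3′ on the strand of its gene. Capitals mark the matches, on either strand, to 7 short motifs. Searched were the GC box, with the letters GGGCGG, and the E-box of basic helix-loop-helix factors, with the letters CANNTG. The MCAT element was taken as CATTCC, the TATA box as TATAAA, and the core of nuclear receptor sites as AGGTCA. The MEF3 core was TCAGGTT, and of the MEF2 consensus only the outer bases were required, that is CTA, any 4 bases, and TAG.
Prkab2: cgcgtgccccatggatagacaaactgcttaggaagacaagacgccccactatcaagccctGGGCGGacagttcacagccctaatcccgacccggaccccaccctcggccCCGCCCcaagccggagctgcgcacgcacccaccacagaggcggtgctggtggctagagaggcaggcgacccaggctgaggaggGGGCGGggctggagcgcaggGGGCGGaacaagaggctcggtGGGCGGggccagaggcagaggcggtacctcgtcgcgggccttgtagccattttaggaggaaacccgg
Prkag3: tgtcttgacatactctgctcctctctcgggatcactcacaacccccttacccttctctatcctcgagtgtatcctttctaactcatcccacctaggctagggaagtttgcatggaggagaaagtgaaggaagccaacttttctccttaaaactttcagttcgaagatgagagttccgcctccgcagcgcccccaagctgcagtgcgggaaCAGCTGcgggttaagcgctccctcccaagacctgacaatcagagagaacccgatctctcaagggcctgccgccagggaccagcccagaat

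All capitals in the Prkab2 region are GC boxes, 5 in number, and no other motif matched. The Prkag3 region held 1 E-box, 40 bases before the start site, and no GC box. Among 32851 RefSeq start regions of this length, 35.7% held a GC box and 72.3% an E-box. The MCAT element was found in 14.7%, the nuclear receptor core in 16.3%, the TATA box in 13.6%, the MEF3 core in 4.07%, and the outer MEF2 bases in 3.69%. The Prkab2 and Prkag3 regions had no motif of these in common. Their base composition also differed, with 23 CpG dinucleotides in the Prkab2 region and 11 in that of Prkag3 (median of all regions 7). The region of Prkaa2 held 2 GC boxes and 35 CpG dinucleotides, and that of Prkaa1 5 GC boxes and 52. In Prkag2, the E-box and MCAT matches of its second region overlapped by 1 base. A match or its absence describes these letters only.

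The genes whose pattern over the 10 libraries was most like that of each called subunit gene were found by the root mean square difference of log2 values centered per gene, over 12664 genes. For Prkab2 they were Fam83d, Mylk2, and Tmem56, with differences of 0.27, 0.27, and 0.28, where the spread of Prkab2 itself was 1.18. Fam83d had 2.14 ± 1.20 normalized CPM in EDL, 2.92 ± 0.369 in psoas, and 0.0869 ± 0.0840 in soleus (SD). The soleus level is below the 0.5 added before log2 values were taken, so the likeness of Fam83d depends on that setting. Mylk2, the myosin light chain kinase of skeletal muscle, had 318 ± 138 normalized CPM in EDL, 501 ± 96.7 in psoas, and 102 ± 6.41 in soleus. Prkag3 was closest to Ptx3 (0.35), Phkg1 (0.36), and Eya4 (0.36), at a spread of 1.17. Phkg1 encodes the catalytic subunit of muscle phosphorylase kinase, which activates glycogen breakdown, and is in the glycogen list described next. The nearest genes to Prkag2 were Cdkal1 (0.17), Mrtfa (0.19), and Pds5b (0.20), at a spread of 0.55.

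Genes around the kinase were described with 5 lists holding 68 measured genes: activators and regulators of AMPK, related kinases, substrates, adenylate metabolism, and glycogen metabolism. Of these, 2 were called in psoas vs EDL, 15 in soleus vs EDL, and 14 in soleus vs psoas, or 2.94%, 22.1%, and 20.6% of the listed genes, beside 2.11%, 5.77%, and 5.69% of all genes. In psoas vs EDL, the share of listed genes was thus near that of all genes.

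None of the 14 activators and regulators was called in any comparison, beside 2.11%, 5.77%, and 5.69% of all genes. For a list this short, that is near the share of all genes. Stk11, which encodes the main activating kinase LKB1, was at 34.3 ± 11.7 normalized CPM in EDL, 48.1 ± 7.34 in psoas, and 52.6 ± 5.92 in soleus (SD, n = 3, 3, and 4). Camkk2, the calcium-dependent activating kinase, was at 2.72 ± 0.128, 1.68 ± 0.644, and 2.34 ± 0.851. Of the 11 related kinases measured, 2 were called, both higher in soleus. Nuak1 rose by 2.79 ± 0.38 (SE) on the log2 scale in soleus vs EDL and by 2.82 ± 0.38 in soleus vs psoas (edgeR adjusted p = 0.000775 and 0.000755). Mark1, a microtubule affinity-regulating kinase, rose by 2.37 ± 0.34 and 2.57 ± 0.36 (adjusted p = 0.00108 and 0.000863). Mark1 was low in the fast muscles, at 0.852 ± 0.0963 normalized CPM in EDL and 0.725 ± 0.324 in psoas, against 4.46 ± 1.32 in soleus (SD). Nuak1 and Mark1 are activated by LKB1 as AMPK is, and neither was called in psoas vs EDL.

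Of 24 substrate genes, 2 were called in psoas vs EDL, both higher in psoas. These were Tbc1d4 (AS160, which controls glucose transporter traffic) and Acacb (the acetyl-CoA carboxylase that restrains fatty acid entry into mitochondria). Tbc1d4 was at 11.3, 10.8, and 12.9 normalized CPM in EDL, at 42.4, 35.0, and 90.1 in psoas, with soleus at 48.7 to 79.5. EDL was apart from the other two muscles, with log2 fold changes of 2.26 ± 0.34 (SE) in psoas vs EDL and 2.49 ± 0.33 in soleus vs EDL (edgeR adjusted p = 0.00357 and 0.000655). Acacb had 26.1, 26.9, and 49.4 normalized CPM in EDL, against 74.9 to 139 in psoas and 98.8 to 149 in soleus. It rose by 1.75 ± 0.30 and 1.84 ± 0.29 (adjusted p = 0.00687 and 0.00193). In psoas vs EDL the count of listed genes called was 0 without EDL 1 or EDL 2, 7 without EDL 3, and 1 without psoas 1, psoas 3, soleus 1, or soleus 4. Fewer called genes were also found with the 2 muscles fitted alone (0), so the 2 calls depend on the set of libraries.

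In soleus vs EDL, 5 substrates were called higher and 1 lower. Lipe (hormone-sensitive lipase, 1.44) and Hdac5 (a histone deacetylase, 1.004) were among those higher, and are named after their values were seen. The Lipe call (edgeR adjusted p = 0.00122) held in 17 of 20 alternative fits, that of Hdac5 (0.00409) in 7. Rptor, a subunit of the mTOR complex, rose by 1.44 ± 0.25 (SE, edgeR adjusted p = 0.00349), whereas Pfkfb3, which makes the glycolytic activator fructose 2,6-bisphosphate, decreased by 3.40 ± 0.33 (adjusted p = 0.000111). The Rptor call held in 13 of 20 alternative fits and the Pfkfb3 call in all 20. Pfkfb3 ranged from 5.27 to 13.0 normalized CPM in soleus, from 73.4 to 97.1 in EDL, and from 33.0 to 69.1 in psoas. In soleus vs psoas, 1 substrate was called higher and 2 lower, Pfkfb3 (-2.58 ± 0.32, adjusted p = 0.000444) and, also named after the values were seen, Eef2k, the kinase of elongation factor eEF2 (-1.19). Lipe was the one higher, at 1.05 (edgeR adjusted p = 0.00669), a call kept in 8 of 20 alternative fits. The Eef2k call was kept in 14. Tbc1d1, the partner of Tbc1d4, had log2 fold changes of -0.92 against EDL and -1.05 against psoas, neither called (adjusted p = 0.0467 and 0.0327). Ppargc1a, the transcriptional coactivator of mitochondrial genes, was at 22.6 ± 1.78 normalized CPM in EDL, 33.7 ± 5.84 in psoas, and 28.4 ± 2.11 in soleus, and was not called in any comparison.

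Glycogen genes were called only lower in soleus, 5 of 12 against EDL and 7 of 12 against psoas, where 2.18% and 2.71% of all genes were called lower. Their median log2 fold change was -0.94 in soleus vs EDL and -1.50 in soleus vs psoas, beside 0.44 in psoas vs EDL with 0 called. Phkg1, Phka1, and Phkb, subunits of phosphorylase kinase, had log2 fold changes of -2.32, -1.77, and -1.40 in soleus vs EDL and of -2.39, -2.46, and -1.99 in soleus vs psoas, all called. Stbd1, which binds glycogen, decreased by 1.38 and 1.52. Ppp1r3a, a glycogen-targeting phosphatase subunit named after its values were seen, had -1.05 and -1.49. Its calls held in 12 of 20 alternative fits against EDL and in 19 against psoas. Pygm, the muscle glycogen phosphorylase, was called against psoas (-1.74 ± 0.28, edgeR adjusted p = 0.00207) and not against EDL (-0.98, adjusted p = 0.0331). Whether the change differed between these comparisons was not tested.

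Among 7 adenylate genes, the 2 AMP deaminases Ampd1 and Ampd3 moved in opposite directions. Ampd1, the muscle form, ranged from 197 to 261 normalized CPM in soleus, from 648 to 767 in EDL, and from 470 to 938 in psoas. It decreased by 1.61 ± 0.23 (SE) on the log2 scale in soleus vs EDL and by 1.54 ± 0.23 in soleus vs psoas (edgeR adjusted p = 0.00104 and 0.0013). Ampd3, the form known from erythrocytes, rose from 1.18 ± 0.307 normalized CPM in EDL and 2.85 ± 0.307 in psoas to 6.84 ± 1.42 in soleus (adjusted p = 0.000156 and 0.006). The Ampd3 call held in all 20 alternative fits against EDL and in 11 against psoas. Erythroid marker sums were 3.43 to 22.9 in soleus and 5.66 to 122 in the other muscles. Their part in the Ampd3 values was not tested. Ak1, the adenylate kinase that forms AMP, was not called in any comparison. Its log2 fold changes were 0.68 in psoas vs EDL, -0.26 in soleus vs EDL, and -0.94 in soleus vs psoas. In soleus vs psoas its edgeR adjusted p was 0.00755 and the libraries did not overlap, but the fold change was under 2.

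**Figure D4:**
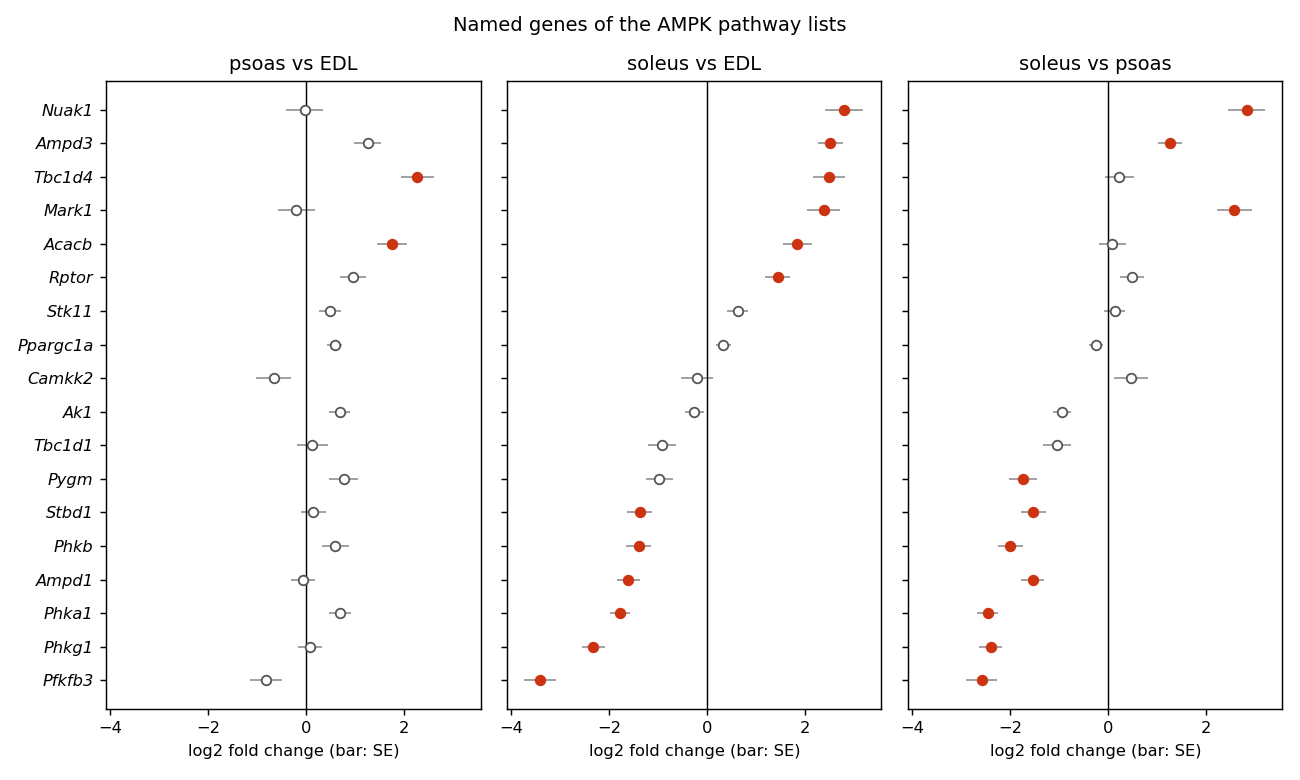
Log2 fold changes with SE of 18 named genes of the 5 lists in each comparison, ordered by soleus vs EDL. Red points were called and open points were not. Tbc1d4 and Acacb are the 2 red points in psoas vs EDL, and the phosphorylase kinase genes lie at the low end in the 2 comparisons with soleus.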

How the data were processed

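The authors removed low-quality bases of 4 libraries (Trimmomatic 0.32), mapped read pairs to GRCm38 (TopHat2 2.1.1), and deposited raw counts per gene, with genes kept if 3 or more samples had 10 or more reads. Libraries were prepared from ribosome-depleted total RNA with a stranded kit. The strand setting and the treatment of reads with several alignments are not given in the sources used here.

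Here the 3 comparisons were made with edgeR 4.0.16 (R 4.3.3), in 1 quasi-likelihood fit of all 10 libraries, TMM normalized, with p-values adjusted over all 16112 genes. Muscles were taken from the sample labels. SE and 95% intervals follow from the quasi-likelihood F. Shares of a subunit class were computed in FPKM from GENCODE M21 exon lengths and compared with exact permutation tests (scipy 1.17.1). Genes of the lists were named if they were among the 10 largest called changes of a comparison, beside Stk11, Camkk2, Tbc1d1, Tbc1d4, Acacb, Ppargc1a, Ak1, and Ampd1. The values of 1 gene that this rule takes are not reported here. Likeness of patterns was computed on log2(normalized CPM + 0.5).

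The subunit genes, lists, and tests were chosen with earlier results of these data known. Libraries share mice across muscles. By animal code, psoas 1 and soleus 1, EDL 3 and soleus 2, and psoas 3 and soleus 4 came from the same mouse, and the methods of the study give fewer mice than the 7 codes. The reported fit has no animal term. Deviations from the muscle means correlated at 0.34, 0.19, and 0.38 in these pairs (consensus 0.24), and limma-voom with the animal as a random effect called the same number of subunit genes in each comparison. The scripts were tested on simulated counts. Alternatives were DESeq2 1.42.0, limma-voom (limma 3.58.1) with the animal as a random effect, median-ratio and upper-quartile normalization, a low-count filter, fits of 2 muscles alone, covariates for trimming, sex, and a run proxy (trimming and age), the replicate block, an adjusted p under 0.05, fits without each library, and for shares other gene lengths.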

Additional observations from a re-analysis of the deposited data

Results flagged for a closer look

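Dixon's ratio (95% critical value) was computed for the 4 soleus libraries in 12 series of values, the levels of the 7 subunit genes and 5 class shares, and chance passes about 1 in 20 such groups. It singled out 1, the share of Prkab2 among scaffold transcripts in soleus 3, at 96.5% where the other soleus libraries were between 89.4% and 90.2% (ratio 0.884). In soleus 3, Prkab1 was counted 13 times, the lowest count of any subunit gene, in the library with the lowest total count. The ratio was not computed for EDL and psoas, with 3 libraries each, so EDL 3 was not examined in this way.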

How the results depend on the processing

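Over 20 alternative fits, the calls of Prkab2 in soleus vs EDL and of Prkab2 and Prkag3 in soleus vs psoas were kept. In psoas vs EDL, the number of subunit genes called was 0 in the reported fit and 1 with DESeq2 or, chosen after the data were seen, within the trimmed libraries. In soleus vs EDL it was 2, and 1 with trimming as a covariate or among untrimmed libraries, and in soleus vs psoas it was 3, 2 with trimming or the run proxy as a covariate, and 1 among untrimmed libraries. Without each library in turn, it ranged from 0 to 1 in psoas vs EDL, from 1 to 2 in soleus vs EDL, and stayed at 3 in soleus vs psoas. Of the 68 listed genes, the 2 called in psoas vs EDL became 5 with DESeq2, 4 with a covariate for the run proxy or at an adjusted p under 0.05, and 0 with the 2 muscles fitted alone, with the replicate block, or among untrimmed libraries, and 0 to 7 without each library. The 15 called in soleus vs EDL became 9 with either trimming or the run proxy as a covariate and 8 among untrimmed libraries, and the 14 in soleus vs psoas became 5 among untrimmed libraries. For these shifts, the cause was not tested. With 1 library left in EDL or psoas, its spread is assumed to be that of the other groups.

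Among the log2 fold changes of the subunit genes, changes of sign occurred only in those that were not called. For Prkaa1 in soleus vs EDL, the value was -0.044 with upper-quartile normalization, -0.087 with trimming, -0.073 with the run proxy, -0.016 with sex as a covariate, and -0.071 among untrimmed libraries, and from -0.038 to 0.10 without each library. For Prkaa2 it was -0.22 with trimming, -0.24 with the run proxy, -0.58 among untrimmed libraries, and from -0.13 to 0.65 without each library. For Prkab1 it was 0.012 with sex, and from -0.22 to 0.030 without each library. In soleus vs psoas, Prkab1 had -0.078 with trimming, -0.063 with the replicate block, and from -0.076 to 0.22 without each library, and Prkag1 had -0.039 with trimming and -0.064 with the run proxy. In psoas vs EDL among untrimmed libraries, Prkab2 had -0.19 and Prkag3 -0.23.

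Of the 15 share differences (percentage points), those of untrimmed libraries only were 2.14 for Prkaa2 and 0.154 for Prkab2 in psoas vs EDL, -3.77 for Prkaa2 and 0.238 for Prkag2 in soleus vs EDL, and 28.3 for Prkag1, -0.818 for Prkag2, and -27.5 for Prkag3 in soleus vs psoas. The reported differences in soleus vs EDL were 2.15 for Prkaa2 and -0.30 for Prkag2, so both changed sign. Without correction for gene length, Prkag2 gave 2.70 in psoas vs EDL and 0.569 in soleus vs EDL, and Prkaa2 -4.28 in soleus vs psoas. With the longest transcript as length, Prkab2 gave -9.67 and Prkag2 -2.44 in soleus vs psoas. The other share differences moved by less than the SD between libraries. Of these, Prkag1 and Prkag3 in psoas vs EDL changed sign without single libraries, with ranges of -5.70 to 3.48 and -4.50 to 3.89.

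Replicate numbers as such did not pair the libraries consistently. The correlation of deviations between libraries of the same number ranged from -0.23 to 0.50, and the replicate block left the subunit genes called at 0, 2, and 3. Libraries with the same animal code correlated at 0.19 to 0.38. Pairs with different codes reached like values, 0.50 for EDL 3 and psoas 3 and 0.34 for EDL 1 and soleus 1. With the animal as a random effect, the listed genes called were 2, 17, and 14. Counts of Prkab1 and Prkag2 went down to 13 and 21.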
